A study of Mus musculus with 20 samples.

Results

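During reprogramming of mouse embryonic fibroblasts (MEFs) with Oct4 and native Nanog, 2820 genomic regions that were closed in MEFs became accessible on at least 3 of 8 sampled days and had no accessibility peak on any of the 8 days when Nanog was replaced by NanogN70. These Nanog-only regions were 2820 of 335858 regions in all, and 1.27% of the 221616 regions closed in MEFs. Accessibility was read by ATAC-seq, in which the Tn5 transposase cuts and tags open DNA. Regions were built by joining peaks of the 20 libraries wherever these shared 1 bp or more, and open means that the library in question had a peak there. The peak calls of the MEF, Nanog and NanogN70 libraries chose the members, so counts by day and scores describe them and carry no test, while the state in embryonic stem cells (ESCs), genomic position and DNA sequence were not used by the rule.

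The MEFs came from embryos at E13.5 and carried the OG2 (Oct4-GFP) reporter. Both reprogramming paths used pMXs retroviral vectors for Oct4 together with either Nanog or NanogN70, the fusion called NanogBiD in the study, in which the BRG1-interacting N-terminal piece of SS18 is joined to the N-terminus of full-length NANOG. Day 0 was set after 2 rounds of infection, and the cells then grew in iCD3 medium and, from day 7, in N2B27 with 2i and LIF. Each path had 1 library on days 0, 1 and 3, on days 5, 7 and 8 and on days 10 and 12, untransduced MEFs had 1 library, and ESCs (from OG2 mice, by the study's methods in N2B27 with 2i and LIF) had 3 libraries, labeled as ESCs in the titles but as MEFs in the source field. Every library was made from a bulk population, in which a site open in fewer cells cannot be told apart from a site less open in each cell.

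NANOG is a homeodomain protein and OCT4 (encoded by Pou5f1) a POU protein of the pluripotency network, and both bind enhancers with SOX2 in ESCs. SS18 is a subunit of the BAF complex, which slides and evicts nucleosomes through its BRG1 ATPase, so the fusion ties NANOG to a remodeler. In fibroblasts, open enhancers carry sites for AP-1, the FOS and JUN dimer, while E-boxes are bound by basic helix-loop-helix proteins such as MYOD1 and TWIST1, and NFI proteins bind a short motif found at many somatic enhancers. Forced expression of pluripotency factors in fibroblasts is known to open many sites for a time that are closed both in fibroblasts and in ESCs.

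The sequences below are read from the plus strand of GRCm38 within 50 bp of the strongest summit of a region, in lower case with motif matches in capitals. The motifs in capitals were the E-box CAGCTG, AP-1 TGANTCA, SOX ACAATG or ACAAAG, OCT ATGCNAAT, OCT-SOX TTGTNATGC and NANOG TAATGG, all on both strands. The first 4 are shown because E-box and AP-1 matches were among the motifs found more often in the Nanog-only regions than in the NanogN70-only regions, and they are the first 4 of the regions that hold both within 25 bp of the summit (by days open, then mean score, leaving out untranslated regions), chosen after the shares were seen.
chr9:120043186-120043286 (in Cx3cr1): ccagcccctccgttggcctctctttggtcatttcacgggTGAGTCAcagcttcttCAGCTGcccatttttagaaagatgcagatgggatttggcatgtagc
chr16:95672562-95672662 (nearest start Ets2): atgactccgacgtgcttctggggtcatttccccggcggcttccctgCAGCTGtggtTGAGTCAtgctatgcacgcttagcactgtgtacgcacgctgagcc
chr1:153501826-153501926 (nearest start Dhx9): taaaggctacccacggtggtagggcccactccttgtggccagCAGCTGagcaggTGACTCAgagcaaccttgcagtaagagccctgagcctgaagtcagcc
chr6:146138498-146138598 (in Itpr2): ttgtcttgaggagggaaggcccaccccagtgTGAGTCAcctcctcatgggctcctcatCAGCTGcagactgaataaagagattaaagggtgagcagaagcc
The selection fixed the closeness of these matches to the summit, and such pairs were rare, at 8 of 2820 regions (0.284%). They were found in 0.0714% of the NanogN70-only regions and 0.196% of the regions open on at least 3 days in both paths.

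The next 4 are the Nanog-only regions open on the most days and closed in all ESC libraries, which is the common state of the set.
chr12:116959306-116959406 (in Ptprn2): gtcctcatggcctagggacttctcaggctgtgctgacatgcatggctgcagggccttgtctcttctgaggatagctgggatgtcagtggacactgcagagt
chr12:25549903-25550003 (nearest start Id2): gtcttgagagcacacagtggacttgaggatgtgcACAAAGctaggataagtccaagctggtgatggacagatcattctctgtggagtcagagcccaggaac
chr8:13468973-13469073 (in Gas6): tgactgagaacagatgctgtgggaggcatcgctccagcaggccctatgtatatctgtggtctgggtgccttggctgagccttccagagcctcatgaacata
chr2:80851277-80851377 (nearest start Nup35): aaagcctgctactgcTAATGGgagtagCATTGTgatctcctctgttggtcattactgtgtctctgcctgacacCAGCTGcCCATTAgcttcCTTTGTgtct
Of these, 1 held an E-box in the window shown and none held an AP-1 or OCT-SOX match.

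The following 4 are the Nanog-only regions open on the most days among those open in at least 2 ESC libraries, the uncommon state.
chr2:132599167-132599267 (in AU019990): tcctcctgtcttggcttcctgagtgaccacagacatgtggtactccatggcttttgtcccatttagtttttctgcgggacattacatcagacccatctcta
chr14:55078064-55078164 (in Zfhx2): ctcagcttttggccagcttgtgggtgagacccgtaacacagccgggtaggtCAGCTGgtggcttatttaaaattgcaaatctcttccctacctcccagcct
chr9:67955458-67955558 (in Vps13c): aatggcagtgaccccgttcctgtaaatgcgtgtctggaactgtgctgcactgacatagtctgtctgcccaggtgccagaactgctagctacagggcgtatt
chr7:74719492-74719592 (nearest start Slco3a1): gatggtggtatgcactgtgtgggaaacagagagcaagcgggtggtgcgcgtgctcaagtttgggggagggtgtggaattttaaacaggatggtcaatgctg
Here too 1 of the 4 windows held an E-box, and no window held a SOX, OCT or NANOG match.

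The last 4 are the first of the 8 Nanog-only regions with a match to the composite OCT-SOX motif, the site at which OCT4 and SOX2 bind side by side.
chr9:113302598-113302698 (in Gm36367): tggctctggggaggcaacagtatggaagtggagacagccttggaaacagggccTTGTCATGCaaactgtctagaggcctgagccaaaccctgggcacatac
chr11:119214465-119214565 (in Tbc1d16): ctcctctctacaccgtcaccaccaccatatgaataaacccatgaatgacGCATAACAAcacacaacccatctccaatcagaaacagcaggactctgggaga
chr6:94509087-94509187 (in Slc25a26): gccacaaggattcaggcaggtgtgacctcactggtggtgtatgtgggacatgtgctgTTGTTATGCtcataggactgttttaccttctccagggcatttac
chr5:27137160-27137260 (in Dpp6): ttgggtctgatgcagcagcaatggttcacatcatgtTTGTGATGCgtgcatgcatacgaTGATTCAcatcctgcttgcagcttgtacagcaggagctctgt
A match is a run of letters and was not tested for binding.

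The labels and the libraries were checked before the members were described. The starts of 33 to 35 of 35 listed pluripotency genes had a peak within 2 kb in the ESC libraries, with none at Pou5f1 in ESC replicate 2, against 27 in MEFs, where all 28 listed fibroblast genes had one. Of these fibroblast genes, 22, 24 and 21 also had one in ESC replicates 1, 2 and 3. Sequencing depth is unknown, and the median summit pileup (reads stacked at the summit, not scaled to depth) at the 14217 regions open in all 20 libraries ran from 16 to 38 in the Nanog and from 16 to 60 in the NanogN70 libraries. The NanogN70 day 3 library stood apart. It had the pileup of 60, 23.3% of its regions were open in no other library, and 19 of 20 listed leukocyte genes had a peak at their start, whereas 2 to 6 had one in each of the 15 remaining reprogramming libraries 10 in the MEF library and 10 to 13 in the ESC libraries. Without it the rule gave 3065 Nanog-only and 5716 NanogN70-only regions (2820 and 7008 with it). Of the regions closed in MEFs and open on at least 3 Nanog days, 17.1% then had no NanogN70 peak (15.7% with it). The share of Nanog-only regions within 2 kb of a protein-coding start was then 4.80% (4.04% with it). Its part in the ESC-open and motif shares is given below, and no gene-list counts are given without it.

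The Nanog-only regions were most often open in the middle of the time course, which was not particular to them. On day 0 309 of them had a peak (11.0%, against 5.64% of all regions closed in MEFs), on day 1 850 (30.1%, against 7.1%) and on day 3 1507 (53.4%, against 6.49%). The number reached 2250 on day 5 (79.8%, against 15.6%) and 2303 on day 7 (81.7%, against 13.5%). It was 1835 on day 8 (65.1%, against 9.4%), 836 on day 10 (29.6%, against 3.96%) and 286 on day 12 (10.1%, against 5.16%). The share of all regions closed in MEFs was itself highest on days 5 and 7, and the median pileup at the regions open in all libraries was 16, 16, 23, 28, 38, 32, 23 and 24 from day 0 to day 12, so the pileup and the member count were both highest on day 7. They parted on other days, with 23 and 1507 members on day 3 and 24 and 286 members on day 12, and the part of depth in the count was not tested. In the NanogN70 path, where none of the members had a peak by the rule, the share of all regions closed in MEFs was 17.9%, 14.1%, 18.2%, 16.4%, 14.8%, 7.02%, 4.94% and 8.46% in the same order of days. Single libraries weigh on the count, since leaving out Nanog day 7 or day 5 from the rule gave 1537 or 1577 regions. The minimum stayed at 3 days, so leaving out a Nanog library could only lower the count.

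**Figure D1:**
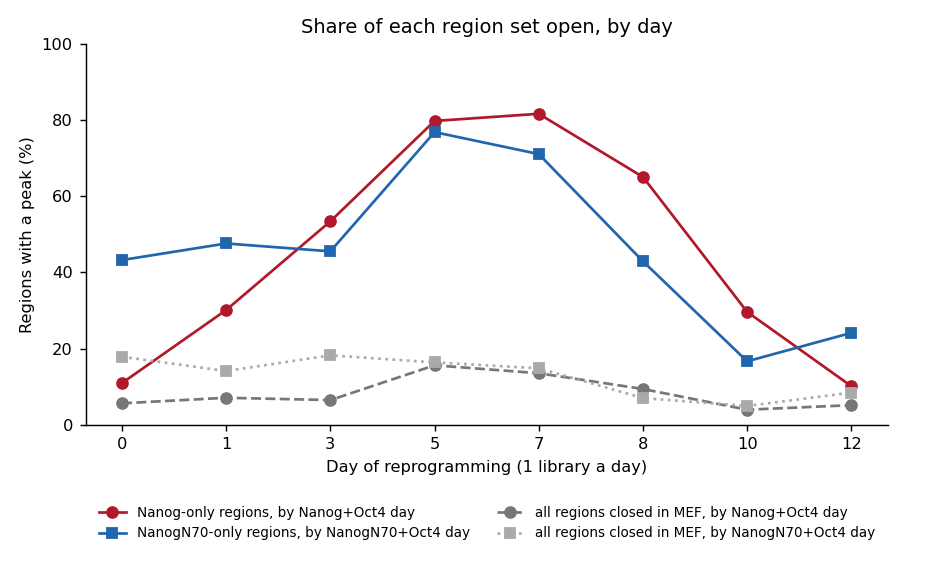
Share of regions with a peak (y axis, %) by day of reprogramming (x axis, 1 library a day) for the Nanog-only regions, for the NanogN70-only regions chosen by the mirror rule in their own path, and for all regions closed in MEFs in each path. The Nanog-only regions climb from 11.0% on day 0 to 81.7% on day 7 and return to 10.1% on day 12.

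Most Nanog-only regions were open for a single run of days. A run without a gap held for 1769 regions (62.7%), 914 had 2 runs and 137 had 3 or more. Peaks on at least 2 of days 5, 7 and 8 were found in 2449 regions (86.8%), and 35 had no peak on any of these days. The 135 patterns of days were led by days 5, 7 and 8 alone (429 regions), days 3, 5 and 7 (349) and days 3, 5, 7 and 8 (197). The first open day was day 0 in 309 regions, day 1 in 669, day 3 in 931, day 5 in 736 and day 7 or later in 175. The last open day was day 7 or earlier in 813 regions, day 8 in 1057, day 10 in 664 and day 12 in 286.

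The threshold of 3 days cut through a falling distribution. Exactly 3 days were open in 1686 members, 4 in 703, 5 in 306, 6 in 101, 7 in 22 and all 8 in 2. Just outside, 5007 regions closed in MEFs and in every NanogN70 library were open on exactly 2 Nanog days, with a median best score of 80.2 against 107 for the members with 3 days (the MACS score, -10 log10 p). On the NanogN70 side, 2206 regions with at least 3 Nanog days had a peak in exactly 1 NanogN70 library, most often day 5 (507) or day 0 (495), and their median best Nanog score was 127 against 121 for the members.

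The Nanog-only regions were weak peaks. Their best score had a median of 121 (range 54.4 to 784) and their best pileup a median of 9 reads (range 4 to 31), and their median width was 288 bp. Regions open on at least 3 days in both paths numbered 10227 (4.61% of the regions closed in MEFs), with a median best Nanog score of 193, pileup of 12 and width of 542 bp. The mirror set, open on at least 3 NanogN70 days and on no Nanog day, numbered 7008 (3.16%), with 152, 10 and 358 bp. Width was that of the region merged over all 20 libraries, and best values were the highest over the days of the path. Both can grow with the number of open libraries, whose part was not tested. The share of regions that lacked a peak in the other path was lower at higher scores, and the part of peak strength in the choice of members was not tested. Of the 17944 regions closed in MEFs and open on at least 3 Nanog days (8.1% of the regions closed in MEFs), 15.7% (95% exact interval 15.2 to 16.3) had no NanogN70 peak. By best score this was 29.8% at 50 to 75 (n = 1084), 19.6% at 100 to 150 (n = 4705) and 4.64% at 300 and above (n = 3339). The reverse share, of NanogN70 regions without a Nanog peak, was higher in each of the 6 bins and fell as well, from 45.4% to 11.6%. Of the Nanog-only regions, 709 (25.1%) lay within 500 bp of a region with a NanogN70 peak, against 995 (14.2%) of the NanogN70-only regions for a Nanog peak, and the median distance to the nearest such region was 2576 bp.

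**Figure D2:**
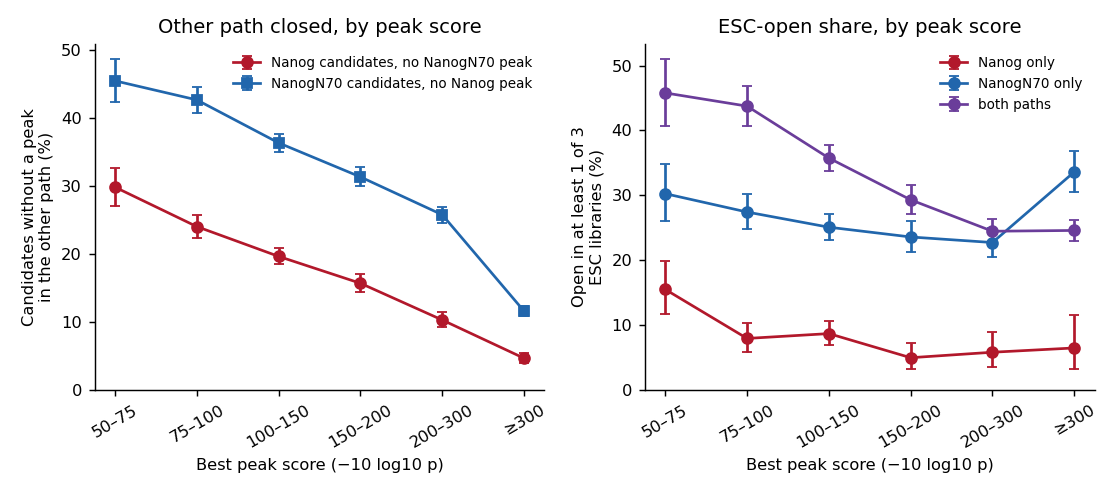
Both panels have the best peak score on the x axis (−10 log10 p) and 95% exact intervals as error bars. Left, the share of regions without a peak in the other path (y axis, %), which falls from 29.8% to 4.64% for the Nanog path. Right, the share open in at least 1 of 3 ESC libraries (y axis, %), in which the Nanog-only regions lie below both other sets in every bin.

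The regions open on the most days show the course at single sites. An intronic region of Ptprn2, which encodes a phosphatase-like protein of secretory granules, at chr12:116959184-116959727 was open on all 8 days, where its pileup, in order of sampling, was 7, 5, 13, 15, 21, 12, 8 and 5. Its pileup peaked on day 7, the day on which the median pileup at the regions open in all libraries was also highest in the Nanog path. The other region open on all 8 days, chr12:25549756-25550249, lay 452616 bp from the start of Id2, an inhibitor of basic helix-loop-helix proteins, with pileups of 6, 9, 5, 7, 6, 6, 5 and 7. It had its highest value on day 1 and was nearly level thereafter. Neither region had a peak in any ESC library, and the nearest NanogN70 peaks lay 20712 and 17877 bp away.

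Of the members with 7 days, the strongest lay in an intron of Gas6, a ligand of the TAM receptor kinases, at chr8:13468554-13469300. It had no peak on day 0 and then pileups of 6, 28, 16, 27, 19, 9 and 4, and a mean score of 335, and was 1253 bp from a region open in MEFs. The region at chr2:80850780-80851461, 211948 bp from Nup35 (a nuclear pore protein), had 5, 14, 15, 20, 9, 6 and 5 over the same days. Both had their highest values between days 3 and 7. The region at chr7:27578456-27578904, 12648 bp from the start of Akt2, a kinase of insulin signaling, rose later, with 6, 10, 12, 16, 31, 19 and 7 from day 1 to day 12, and the 31 reads on day 8 were the highest pileup of any member. The region at chr1:193184713-193185461 was the single one of these 8 at a gene start, that of Traf3ip3, where 11, 5, 15, 15, 12, 23 and 14 reads were stacked up to day 10 and no peak was called on day 12, and it lay 249 bp from a region with a NanogN70 peak. Those at chr15:53063410-53063991, 282168 bp from Ext1 (a heparan sulfate polymerase) and 83 bp from a region open in MEFs, and at chr4:40496440-40497182, 23310 bp from Tmem215, reached 17 and 14.

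**Figure D3:**
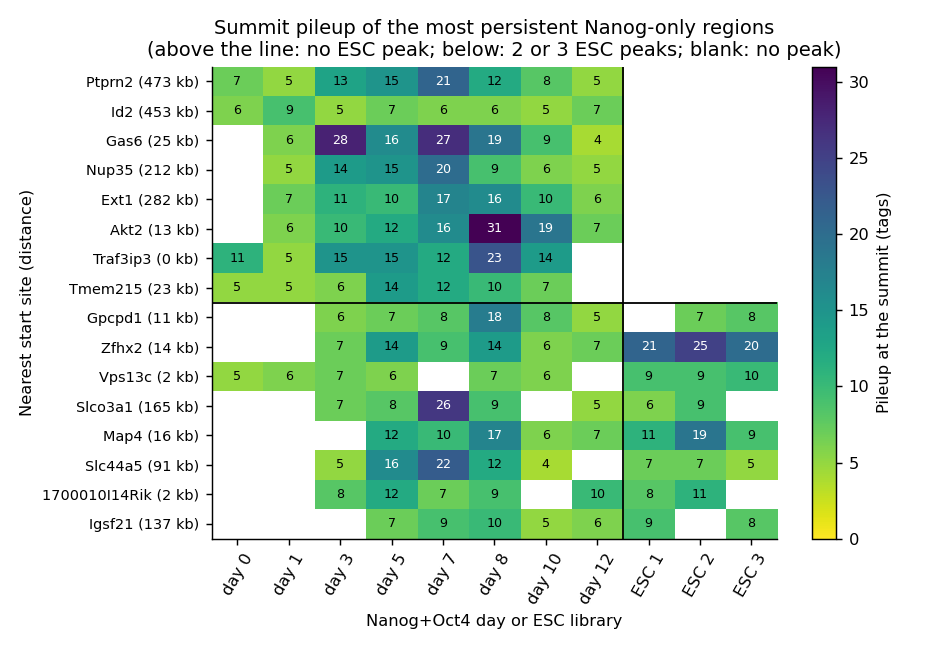
Summit pileup in tags (color and number) of 16 Nanog-only regions (rows, named by the nearest protein-coding start and its distance) in the 8 Nanog+Oct4 and 3 ESC libraries (columns), with blanks where there was no peak. The 8 upper rows are the most persistent regions without an ESC peak and the 8 lower rows those with at least 2 ESC peaks, and the highest Nanog value is the 31 reads near Akt2 on day 8.

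In the ESC libraries, which the rule did not use, the Nanog-only regions were less often open than both other sets. ESC peaks were found at 159, 177 and 133 of the 2820 regions in ESC replicates 1, 2 and 3 (5.64%, 6.28% and 4.72%). In all regions closed in MEFs the shares were 27.8%, 31.4% and 23.8%. The mean was 5.54% ± 0.784 (SD, n = 3) against 21.8% ± 1.51 for the NanogN70-only regions and 25.4% ± 1.66 for the regions open in both paths. The Nanog-only share was lower by 16.3 and 19.9 percentage points, in 3 of 3 libraries each time, and both differences were larger than the spread between the ESC libraries. A two-sided exact sign-flip permutation test over the 3 libraries gave p = 0.25 for each, the smallest p that 3 libraries allow. The spread and the test cover the ESC libraries only, not the single Nanog and NanogN70 libraries that chose the regions. For the share open in at least 1 ESC library, leaving out 1 library gave differences from the NanogN70-only regions of -24.3 to -12.2 points.

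At least 1 ESC library had a peak at 231 Nanog-only regions (8.19%, interval 7.21 to 9.27), at least 2 at 143 (5.07%, 4.29 to 5.95) and all 3 at 95 (3.37%). The remaining 2589 (91.8%) were closed in MEFs, in all NanogN70 libraries and in all ESC libraries. In all regions closed in MEFs these 3 shares were 41.4%, 25% and 16.5%. The share with at least 1 ESC peak was 15.9% in those with at least 1 time-course peak, 26.1% in the NanogN70-only regions and 23.2% in all regions with at least 3 Nanog days. In regions with a peak on 1 or 2 Nanog days and no NanogN70 day the share was 7.74% and 9.53%, so the low share was not particular to regions open on at least 3 days. Among the regions with at least 3 Nanog days the share rose with the number of NanogN70 libraries, from 8.19% with none and 15.2% with 1 to 26.5% with 4 and 58.4% with all 8. Within bins of best score the Nanog-only share was again lower than the mirror share, with 15.5% against 30.2% at scores of 50 to 75, 8.67% against 25.1% at 100 to 150 and 6.45% against 33.6% at 300 and above. Without the NanogN70 day 3 library the shares were 9.27% and 27.2%.

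The ESC-open shares of the sets lay far apart on days 10 and 12, with the widest gap on day 10. Of the 286 Nanog-only regions open on day 12, 42 were open in at least 1 ESC library (14.7%, interval 10.8 to 19.3), whereas of the 1692 NanogN70-only regions open on that day 1044 were (61.7%, 59.3 to 64.0). Without the NanogN70 day 3 library these were 16.3% and 60.1%. On day 10 the shares were 8.01% of 836 and 64.6% of 1168. On day 0 they were 9.71% of 309 and 11.8% of 3032, with overlapping intervals. Grouped by their own days, Nanog-only regions first open by day 3 and last open by day 8 (n = 1441) had a share of 6.45%, those open on days 5 to 8 alone (n = 429) 10.0%, those first open by day 3 and reaching day 10 or 12 (n = 468) 8.12%, and those first open from day 5 and reaching day 10 or 12 (n = 482) 11.8%. The matching NanogN70-only shares were 10.5%, 27.0%, 62.6% and 59.8%. There is 1 library a day, so the shares by day have no test.

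**Figure D4:**
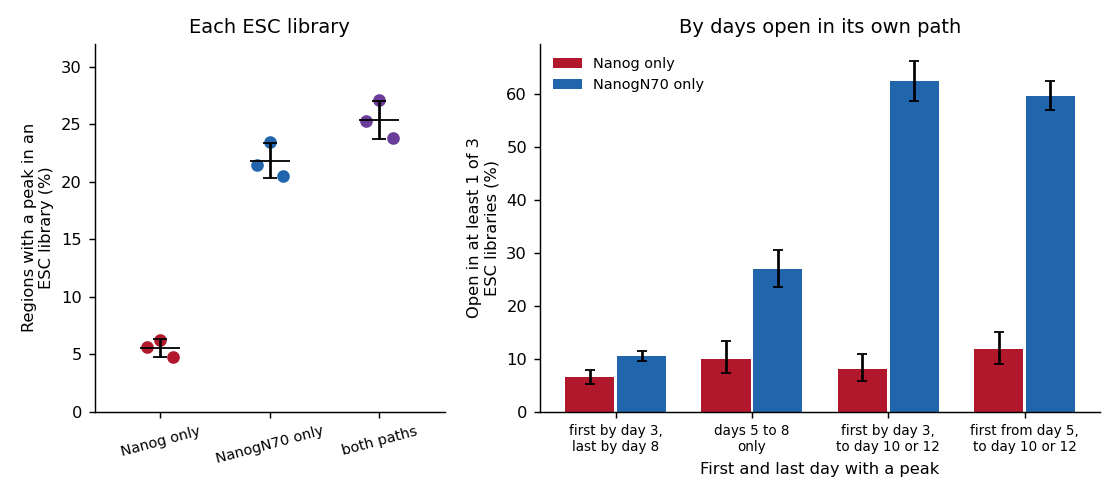
Left, percent of each region set with a peak in each ESC library (points), with the mean and SD over 3 libraries in black. Right, percent open in at least 1 ESC library (bars, 95% exact intervals) by the first and last open day, where the Nanog-only bars stay between 6.45% and 11.8% and the NanogN70-only bars reach 62.6%.

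Where Nanog-only regions were open in ESCs, their median pileup was 9, 10 and 8 in ESC replicates 1, 2 and 3, against 11, 11 and 10 over all peaks of those libraries. A region at chr9:67955424-67955985 in an intron of Vps13c, a lipid transfer protein, lay 1636 bp from its start and had Nanog pileups of 5, 6, 7 and 6 on days 0 to 5, none on day 7, 7 and 6 on days 8 and 10 and none on day 12, with 9, 9 and 10 in the ESC libraries. An intronic region of Slc44a5, a choline transporter-like gene, at chr3:154064071-154064975 had 5, 16, 22, 12 and 4 from day 3 to day 10 and 7, 7 and 5 in the ESC libraries. Without scaling, the ESC pileups lay above every Nanog value at Vps13c and within the Nanog range at Slc44a5. The median pileup at the regions open in all libraries was 32, 38 and 29 in ESC replicates 1, 2 and 3. It was 16, 16, 23 and 28 on Nanog days 0, 1, 3 and 5, and the part of depth in this order was not tested. The region with the highest ESC pileups among the 8 named lay at Zfhx2, a zinc finger homeobox gene (chr14:55077532-55078332), with 21, 25 and 20 against at most 14 in the Nanog path, and it was 87 bp from a region with a NanogN70 peak. Regions at chr7:74719382-74720028 (164602 bp from Slco3a1, an organic anion transporter) and in an untranslated exon of Pde10a, a cyclic nucleotide phosphodiesterase (chr17:8985717-8986136), had peaks in ESC replicates 1 and 2 with 6 and 9 reads and 8 and 11 reads. Of all members, 30 were open on day 12 and in at least 2 ESC libraries.

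Near the summit, the Nanog-only regions carried E-box and AP-1 matches more often, and NANOG and SOX matches less often, than the NanogN70-only and both-path regions. Regions of the Nanog path with a peak in only 1 or 2 NanogN70 libraries, the most similar ones, had AP-1 shares of 7.12% and 7.74%, NANOG shares of 2.04% and 2.12% and SOX shares of 6.71% and 6.88%, with intervals that overlapped those of the Nanog-only regions. Their E-box shares were 8.48% (7.35 to 9.72) and 8.14% (7.14 to 9.24), of which the first interval overlapped that of the Nanog-only regions, and their NFI shares were 3.22% (2.52 to 4.04) and 3.87% (3.17 to 4.67). The E-box CAGCTG was found within 25 bp of the summit in 305 of 2820 regions (10.8%, interval 9.69 to 12.0). The share was 4.28% (3.82 to 4.78) in the NanogN70-only regions, 7.03% (6.54 to 7.54) in the regions open in both paths and 4.61% in all regions closed in MEFs. AP-1 matches were found in 209 (7.41%, 6.47 to 8.44), against 2.10%, 4.01% and 3.46% in the same order. The NFI motif TTGGCA was found in 144 (5.11%, 4.32 to 5.98), against 3.43%, 2.98% and 2.68%. For each of these 3 motifs the interval of the Nanog-only regions did not overlap those of the 3 comparison sets. The intervals cover counting error only, and regions are not replicates of a condition.

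The pluripotency motifs went the other way. The NANOG core TAATGG was found in 43 Nanog-only regions (1.52%, 1.11 to 2.05), against 5.11% (4.61 to 5.65) of the NanogN70-only regions, 3.12% of those open in both paths and 2.39% of all closed in MEFs. The SOX motif was found in 160 (5.67%, 4.85 to 6.59), against 8.25%, 8.07% and 7.87%. The OCT octamer ATGCNAAT was found in 44 (1.56%), against 2.68%, 2.68% and 1.54%, so the Nanog-only share was close to that of all regions closed in MEFs. OCT-SOX matches were rare in every set, at 8 regions (0.284%) against 0.257%, 0.264% and 0.292%. KLF (GGGNGTGG) and ESRRB (AAGGTCA) matches were found in 36 (1.28%) and 5 (0.177%) Nanog-only regions, with KLF at 2.40%, 1.88% and 2.76% and ESRRB at 0.685%, 0.362% and 0.877% in the comparison sets in the same order. For both motifs the interval overlapped that of the regions open in both paths. An E-box or an AP-1 match was present in 506 Nanog-only regions (17.9%), against 6.31% of the NanogN70-only regions and 10.8% of those open in both paths. Any of the SOX, OCT, OCT-SOX and NANOG matches was present in 246 (8.72%), against 15.6% and 13.4%.

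**Figure D5:**
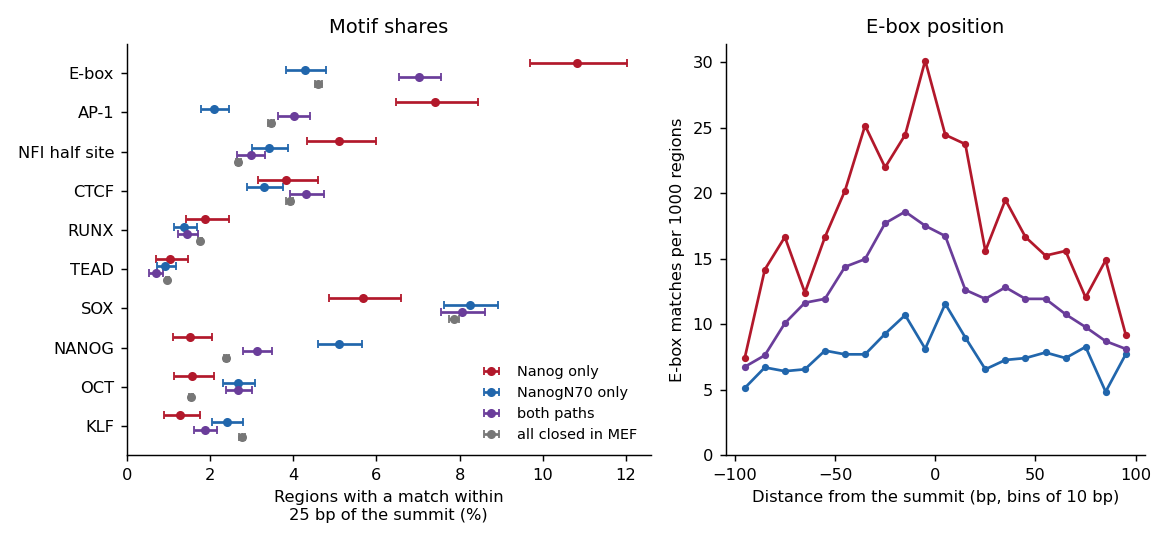
Left, percent of regions with a match within 25 bp of the summit (x axis) for 10 motifs (y axis) in the Nanog-only, NanogN70-only and both-path regions and in all regions closed in MEFs, with 95% exact intervals. Right, E-box matches per 1000 regions (y axis) by distance from the summit (x axis, bins of 10 bp), highest at 30.1 beside the summit in the Nanog-only regions.

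The E-box matches of the Nanog-only regions were densest near the summit. In bins of 10 bp, these regions had 30.1 and 24.5 matches per 1000 regions in the bins left and right of the summit, and 14.2 and 14.9 in the bins centered 85 bp away. The regions open in both paths were densest near the summit as well, with 17.5 and 16.7 against 7.64 and 8.71, and the NanogN70-only regions had 8.14 and 11.6 against 6.71 and 4.85. The E-box share was 11.2% (9.82 to 12.7) in the 1891 members with a best score of at least 100, and 15.3% (11.9 to 19.2) in the 393 with such a score on 3 or more Nanog days, both with intervals that overlapped that of all members. By days open it went from 6.14% of regions with 1 Nanog day and no NanogN70 peak to 8.05% with 2, 10.3% with 3, 11.1% with 4 and 12.3% with 5 or more. Among regions with at least 3 Nanog days, the NANOG share was 1.52% with no NanogN70 library, 2.77% with 4 and 4.75% with 8, and the AP-1 share was 7.41% with none, 7.12% with 1, 7.74% with 2, 4.24% with 4 and 2.77% with 8. The E-box share fell from 10.8% with none to 8.48% with 1, 8.14% with 2, 7.17% with 3 and 6.69% with 4. With 5, 6, 7 and 8 NanogN70 libraries it was 7.08%, 6.77%, 6.90% and 8.91% (6.57 to 11.7), so it did not fall further. A further E-box form, CATCTG, was searched after these values were seen and was found in 287 regions (10.2%), against 5.57% of the NanogN70-only and 5.68% of all regions closed in MEFs. It was found in 7.63% of the regions open in both paths and 8.27% of all regions with at least 3 Nanog days. Without the NanogN70 day 3 library, the E-box, AP-1 and NANOG shares were 10.9%, 7.15% and 1.47%. The mean GC content of the windows was 49.3% in the Nanog-only and 48.0% in the NanogN70-only regions, and in those first open by day 3 it was 48.3% against 45.0% where the last open day was day 8 or earlier and 49.8% against 53.2% where day 10 or 12 was reached. Its part in the motif shares was not tested.

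AP-1 shares were highest in the regions first open by day 3 and last open by day 8, with an interval above those of both classes that opened from day 5. AP-1 matches were found in 9.09% (7.66 to 10.7) of the Nanog-only regions first open by day 3 and last open by day 8, and in 8.12% of those first open by day 3 and reaching day 10 or 12, against 18 of the 429 open on days 5 to 8 alone and 4.56% of those first open from day 5 and reaching day 10 or 12. The NFI motif was found in 4.51%, 5.13%, 4.66% and 7.26% of the same classes, with overlapping intervals. The E-box was found in between 9.23% and 13.3% of all 4 classes, in each case above the NanogN70-only regions of the same class (3.28% to 6.17%). In regions open in MEFs, AP-1 matches were found in 10.8% and E-boxes in 4.59%, so the E-box share of the Nanog-only regions lay above that of both open and closed MEF regions. In the 231 members open in ESCs, E-boxes were found in 8.23%, AP-1 in 4.33% (2.10 to 7.82) and CTCF core matches in 6.93% (4.01 to 11.0). All members had CTCF matches in 3.83% (3.15 to 4.61), and the intervals overlapped for all 3 motifs.

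The Nanog-only regions were less often near protein-coding starts than the comparison sets. Of the 2820, 114 (4.04%, interval 3.35 to 4.84) were within 2 kb of the start of a protein-coding transcript, against 6.61% of the NanogN70-only regions, 7.21% of those open in both paths and 6.89% of all regions closed in MEFs. With the starts of all annotated transcripts, an alternative extended to the comparison sets after the shares were seen, the share was 13.9% (12.6 to 15.2), against 15.3% (14.5 to 16.2), 16.6% and 16.1%, so that the interval overlapped that of the NanogN70-only regions. The median distance to a protein-coding start was 42664 bp, against 32746, 35019 and 31230 bp. Most Nanog-only regions lay inside genes, and summits fell in introns in 53.4%, between genes in 39.9%, in coding exons in 1.95% and in untranslated regions in 2.27%, all within 3 percentage points of the shares in the comparison sets. Among members open in ESCs, 22 of 231 (9.52%, 6.07 to 14.1) were within 2 kb of a start, against 92 of 2589 (3.55%, 2.87 to 4.34) of those closed in ESCs.

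Genes near Nanog-only regions were taken from fixed lists, as genes with a member within 50 kb of a protein-coding start, chosen with earlier results of these data known. Of all 21842 protein-coding genes, 2527 (11.6%) had one. The counts were 3 of 35 pluripotency genes, 6 of 28 fibroblast genes, 2 of 20 AP-1 and TEAD genes, 4 of 23 epithelial genes, 3 of 26 neural genes, 1 of 23 germ layer and trophoblast genes, 4 of 20 leukocyte genes, 4 of 24 genes of BAF subunits and 0 of 18 interferon genes. With lists this short, the exact interval of each share held the 11.6% of all genes. No listed gene had a Nanog-only region within 2 kb of its start. Such regions were few over all genes, with 114 members within 2 kb of any protein-coding start. Even within 10 kb, 2.42% of all protein-coding genes had a member, so a count of 0 in 217 listed genes says little about them.

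The members nearest the listed genes were open on 3 to 5 days. Among pluripotency genes, a region 31725 bp from Dnmt3b, a de novo DNA methyltransferase (chr2:153617457-153617725, in an untranslated exon of Commd7), had pileups of 5, 9, 5 and 11 on days 1, 3, 5 and 7. A region 33794 bp from Lin28a, an RNA-binding protein (chr4:134052635-134052925, with an E-box), had 7, 7, 11, 5 and 5 from day 5 to day 12, and an intronic region of Tfcp2l1, a naive pluripotency factor (chr1:118673603-118673916, with AP-1 and NFI matches), had 6, 6, 7 and 9 on days 0, 1, 7 and 8. None of these had an ESC peak. The gene starts of Nanog, Pou5f1 and Sox2 had no Nanog-only region within 50 kb.

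Near fibroblast genes, an intronic region of Dab2, an endocytic adaptor (chr15:6310517-6310747), had pileups of 7, 7 and 5 on days 5, 8 and 10, a region 19582 bp from Postn, a matrix protein (chr3:54341272-54341527), had 5, 8 and 8 on days 3, 5 and 8, and a region 21071 bp from the collagen gene Col3a1 (chr1:45290085-45290467) had 4, 8, 8 and 8 on days 3 to 8. Fn1, Pdgfra and Cdh2 also had a member within 50 kb. These regions were closed in MEFs, in which the starts of all listed fibroblast genes were open. Near AP-1 and TEAD genes, a region 28348 bp from Jun (chr4:95023450-95023874) had 6, 7, 11, 7 and 5 on days 1, 3, 7, 8 and 10, and a region 45668 bp from Tead4, which binds with YAP1 (chr6:128346491-128347142), had 8, 16 and 11 on days 3, 5 and 7.

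In the epithelial list the nearest regions lay 4179 bp from Pkp3, a desmosomal plakophilin (chr7:141073711-141074039, with pileups of 6, 7 and 6 on days 3, 5 and 7), 28105 bp from Ovol2, an epithelial repressor (chr2:144303345-144303590, with 9, 4, 4 and 6 from day 5 to day 10), and 43469 bp from Ovol2 (chr2:144287925-144288226). Neural genes with a member were Sox21 (chr14:118259334-118259668, at 22304 bp), Foxb1 and Olig1, the last with regions at 34366 bp (chr16:91304138-91304468, open in ESC replicate 2) and 42644 bp (chr16:91312416-91312722). The germ layer list had Eomes, a T-box factor of mesendoderm (chr9:118527536-118527778, at 48675 bp). Leukocyte genes were Cd8a (chr6:71364031-71364342, at 9085 bp), Cd5 (chr19:10703590-10703873), Cd2 (chr3:101309685-101309919) and Zap70. BAF subunit genes were Smarcb1 (chr10:75913141-75913481, at 8133 bp, with an E-box), Arid2 (chr15:96275364-96275612, at 11906 bp), Dpf2 (chr19:5882610-5882985, at 24087 bp) and Brd7. Each of these 13 regions was open on 3 or 4 Nanog days with a pileup of at most 11, and 12 of the 13 had no ESC peak. The region near Dpf2 lay 46 bp from a region with a NanogN70 peak.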

How the data were processed

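ATAC-seq was done on 20 bulk libraries, grouped by their titles. The authors trimmed reads with Trim Galore 0.6.4, aligned them to mm10 with Bowtie2 2.4.5, used SAMtools 1.16.1 to drop mitochondrial, repetitive and low-quality reads and called peaks in each library with MACS 1.4.2. The deposited files give each peak with a score (-10 log10 p, at least 50) and each summit with a signal in tags (pileup), not scaled to depth. The depth of the libraries is unknown, so a site without a peak may have been too shallow to call.

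Peaks sharing at least 1 bp were merged into regions. Positions and sequences came from GRCm38 (GENCODE M21 genes, RefSeq genome). Shares carry exact Clopper-Pearson 95% intervals, which cover counting error only. ESC shares were compared by a two-sided exact sign-flip permutation test over 3 libraries. The calculations used Python 3.11.15, numpy 2.4.6, pandas 2.3.3, scipy 1.17.1 and pysam 0.24.0, and were tested on simulated data. Named regions were the first 8 by days open and then mean score, separately for regions closed in all and open in at least 2 ESC libraries, and up to 3 nearest each of the 9 fixed gene lists. The members and lists were chosen with earlier results of these data known. The added E-box forms and the paired E-box and AP-1 windows were chosen after seeing the data. No sequence from chromosome 18 was printed.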

Additional observations from a re-analysis of the deposited data

How the results depend on the processing

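No paired analysis was possible between the paths by day because the peak calls of those days chose the members. The ESC shares were compared within each library, by the sign-flip test. The number of Nanog-only regions followed the thresholds: it was 1267 with a minimum score of 100 in every library, 393 with that minimum in the Nanog libraries only, 7827 with at least 2 Nanog days and 1134 with at least 4. The NanogN70-only number was 4093, 13864, 18767 and 3075 under these, and 4539 with equal numbers of peaks per library. Leaving out 1 library gave 1537 (Nanog day 7) to 3327 Nanog-only and 4303 (NanogN70 day 5) to 8487 NanogN70-only regions. The minimum stayed at 3 days. Each set could therefore only shrink without a library of its own path and only grow without one of the other path. The share of Nanog regions without a NanogN70 peak was 6.61% with the Nanog-only score minimum, 15.1% with equal numbers, 13.7% with fixed windows, 11.3% with a 500 bp margin, 24.5% with at least 2 and 10.4% with at least 4 days, and 11.9% to 18.5% leaving out a library.

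The share open in at least 1 ESC library was 6.55% and 5.85% with the score minimum in every library and in the Nanog libraries only, 5.24% with equal numbers, 9.73% with fixed windows and 6.97% with at least 4 days (6.61% to 10.4% leaving out a library). The share open in at least 2 was 3.31%, 3.23% and 6.49% with the Nanog score minimum, equal numbers and fixed windows (3.65% to 6.75%). The difference from the NanogN70-only regions, -17.9 points, was negative in all 27 alternatives, at -25.0 with the Nanog score minimum, -20.2 with equal numbers, -12.3 with at least 2 days, -20.4 with at least 4 and -24.3 to -12.2 leaving out a library. The share within 2 kb of a start was 5.60% with the score minimum, 5.43% with equal numbers and 3.15% with the margin (3.49% to 4.80% leaving out a library), 2.70% within 1 kb and 13.9% for starts of all annotated transcripts.

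Of 19 motifs, 10 were more frequent in the Nanog-only than in the NanogN70-only regions, and 6 within 100 bp of the summit, where OCT-SOX, CTCF, FOX and RUNX turned negative, to -0.33, -0.38, -0.38 and -0.094 points. There the E-box difference went from 6.53 to 15.1 points, AP-1 from 5.31 to 12.8 and NANOG from -3.59 to -13.3. For the 393 members with the Nanog score minimum, set against the unchanged NanogN70-only regions, 7 motifs were more frequent and the E-box difference was 11.0 points. OCT-SOX, FOX and CEBP (0 of 393 members each) and TEAD (3 of 393) turned negative and ETS (5 of 393) positive. Listed genes with a member fell from 27 of 217 within 50 kb to 3 of 217 within 10 kb. Over all protein-coding genes the share fell as well, from 11.6% to 2.42%. The cause of these changes was not tested. Unknown depth, single libraries per day and weak peaks limit every statement that a region was closed.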

Other observations

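A list of 22 muscle genes was added after the E-box share was seen, since MYOD1 and MYOG, which drive muscle genes, bind E-boxes. Of these, 3 had a Nanog-only region within 50 kb of a start (Myl4, Myog and Ckm), against 11.6% of all protein-coding genes, and 8 had a NanogN70-only region, against 28.3%. The region nearest Myl4, a myosin light chain gene (chr11:104565699-104565990, at 9456 bp), had pileups of 15, 8 and 9 on days 5, 7 and 10 and lay 5 bp from a region that was open in MEFs and had a NanogN70 peak. The region 21996 bp from Ckm, the muscle creatine kinase gene (chr7:19388800-19389029), held an E-box and had 8, 6, 6 and 5 from day 5 to day 10. None of the 3 nearest regions had an ESC peak.

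Other E-box forms, also added after the share of CAGCTG was seen, were less frequent than CATCTG near the summits of Nanog-only regions. CATATG was found in 2.91%, against 1.87% of the NanogN70-only regions, 2.27% of those open in both paths and 1.64% of all regions closed in MEFs. CACCTG was found in 3.26%, against 2.40% of the NanogN70-only regions, 2.95% of those open in both paths and 4.30% of all regions closed in MEFs. CACGTG was found in 1.70%, against 1.04%, 1.28% and 1.18% in the same order.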
